A study of Homo sapiens with 4 samples.

Results

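The plasminogen activator system was followed through 7 genes in Hs746T cells: the activators PLAU and PLAT, the receptor PLAUR, the inhibitors SERPINE2 and SERPINB2, and S100A10 and ANXA2, which form a plasminogen receptor. These are 7 of the 18751 genes that the arrays measured. The members were taken by symbol through the RefSeq accession of each probe, and all of their 9 probes were used, of which 2 were spotted 10 times and the rest once. PLAU and ANXA2 had 2 probes each. Hs746T is an established gastric carcinoma line with a MET exon-skipping mutation together with MET amplification, and MET is the receptor tyrosine kinase for hepatocyte growth factor. Total RNA was hybridised to 4 single-colour Agilent arrays, 1 for each condition. The cells had received the vehicle DMSO, the MET kinase inhibitor PHA665752, a scrambled control siRNA (sc siRNA) or MET siRNA by lipid transfection. The dose and duration of PHA665752 for the arrays are not given in the sources used here. The cells shared no other stated treatment, and all arrays lay on 1 slide. With 1 array per condition there are no replicates, so nothing was tested, and the small number of arrays limits the precision of every value.

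Plasminogen is a circulating proenzyme that urokinase (PLAU) and tissue plasminogen activator (PLAT) cleave to plasmin, a broad serine protease that degrades fibrin and matrix proteins. Urokinase acts largely while bound to its receptor (PLAUR) on the cell surface, and serpins inhibit the activators. In carcinoma cells the system is known for pericellular proteolysis during migration and invasion.

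Values are processed signals, the linear intensity of a spot after background subtraction. A log2 ratio is the difference of 2 arrays after the 75th percentile of each was subtracted on the log2 scale, so it is relative to the bulk of the probes. Those percentiles corresponded to signals of 990.1 (DMSO), 853 (PHA665752), 831 (sc siRNA) and 858 (MET siRNA), and signals listed without names below follow this order. A difference past 2-fold was counted, and that threshold is a description of size only. Repeated spots gave a noise of 0.080 for a log2 ratio of PHA665752 over DMSO, 0.076 for MET siRNA over sc siRNA and 0.079 for sc siRNA over DMSO. It is the noise of a ratio between single spots, so a mean over repeated spots is more precise than it states. This spot noise does not cover differences between cultures. The difference between both controls, sc siRNA over DMSO, is given as a yardstick, and it shares an array with each of the treatment pairs. Only the sc siRNA cells of this pair were transfected. The yardstick can therefore include effects of transfection, which cannot be told apart from differences between cultures.

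The labels were checked first. The MET probe read 221451 after DMSO, 100492 after PHA665752, 190010.0 after sc siRNA and 77854 after MET siRNA. MET was therefore lowest on the array labelled MET siRNA, with a log2 ratio of -1.33 to sc siRNA, and it read -0.93 with the inhibitor. The epithelial markers EPCAM, KRT8, KRT18, KRT19 and CLDN4 were well above background on all arrays, whereas CDH1 was dim, at 33.0, 30.2, 13.1 and 10.4 in the same order. Of the listed markers with a value on each array, 3 of 4 gastric, 4 of 4 mesenchymal, 3 of 4 leukocyte and 3 of 4 endothelial genes were well above background on at least 1 array. The T cell marker CD3E and the endothelial receptor gene KDR were not, whereas PECAM1 was on all of them. On the probes that stood for them, the gastric TFF1, TFF2 and MUC6 read 41.7 to 163. The mesenchymal CDH2, FN1 and ZEB1 read 770 to 4223, and TWIST1 read 41.3 to 113. The mesenchymal VIM had no value on either siRNA array and was outside those counts. It read 291840 with DMSO and 276821 with PHA665752. Probes well above background made up 67.4%, 67.4%, 68.2% and 61.1% of all probes.

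With PHA665752, 2 of the 7 members fell past 2-fold (PLAU and PLAUR) and 1 rose past it (SERPINB2). Over all 14318 genes with a ratio, 8.03% were lower and 13.1% were higher by more than 2-fold. The median log2 ratio of the members was 0.065, beside 0.075 over all genes. With MET siRNA, 0 of 7 members passed 2-fold in either direction, beside 0.696% lower and 2.04% higher of 13644 genes. All 7 member values of that pair lay below 0, as did 7228 of 13644 genes, with a median of -0.13 beside -0.017 over all genes. The SERPINB2 value among them is a bound, and S100A10 read 0.028 with quantile normalization. Between the controls, 0 of 7 members passed 2-fold, beside 1.16% lower and 2.89% higher of 14271 genes, and their median was 0.10 beside -0.011. The members' ratios exceeded the spot noise in 6 of 7 genes with the inhibitor, 5 of 7 with MET siRNA, where the SERPINB2 bound is counted, and 6 of 7 between the controls. Over all genes the shares past the same noise were 89.8%, 75.4% and 77.1%, so the members did not stand out by this count.

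**Figure D1:**
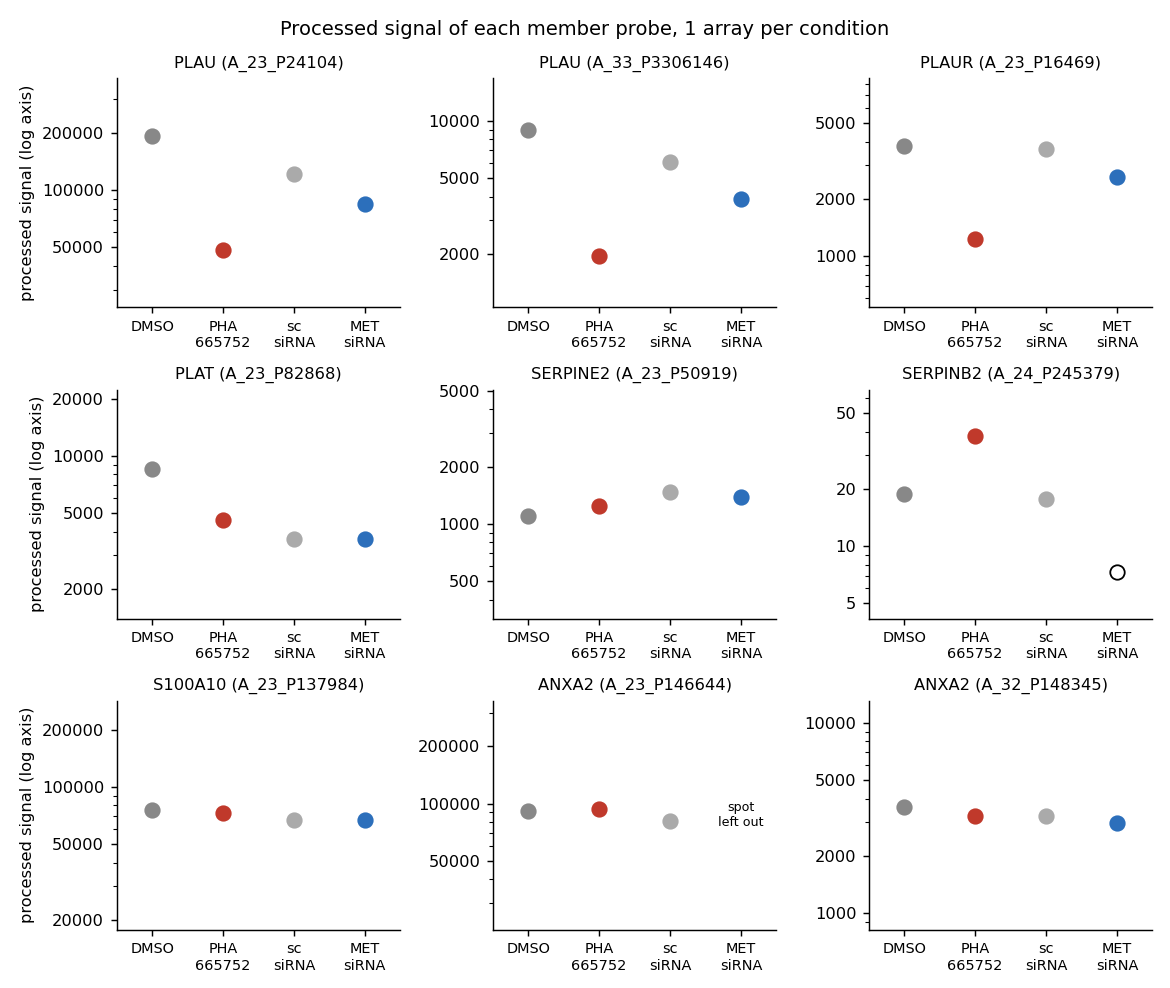
Processed signal (log axis) of each of the 9 member probes on the 4 arrays, with 1 point per array and an open point where the probe was not well above background. All panels span the same number of log units. Both PLAU probes and the PLAUR probe were lowest with PHA665752, while S100A10 and ANXA2 stayed nearly level. A spot of 1 ANXA2 probe was left out on the MET siRNA array.

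PLAU encodes urokinase, and it gave the largest fall among the members. Its probe A_23_P24104, spotted 10 times, had a mean signal of 192412 after DMSO, 48542 after PHA665752, 121059 after sc siRNA and 84697 after MET siRNA. The single spots ran from 185780 to 196869 with DMSO and from 45812 to 49684 with the inhibitor, so the spots of both arrays were far apart. They ran from 115423 to 123605 with sc siRNA and from 80041 to 87574 with MET siRNA, again without overlap. No spot of a member was marked as saturated.

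The log2 ratio of this PLAU probe was -1.77 with PHA665752 (spot SE 0.017, 3.42-fold lower), which ranked 353 from the lowest of 14318 genes. With MET siRNA it was -0.56 (spot SE 0.014, 1.48-fold lower), rank 436 of 13644. The sc siRNA array itself read -0.42 against DMSO (spot SE 0.014), so the difference between the controls was close in size to that of the siRNA pair. On the DMSO array 4 of its 10 spots carried a background outlier mark and were left out, as was 1 with the inhibitor. With sc siRNA 7 of 10 spots were used, and 2 of those left out carried the same mark. The other PLAU probe, A_33_P3306146, read 8947, 1957, 6081 and 3904. Its ratios were -1.98 with the inhibitor, -0.69 with MET siRNA and -0.30 between the controls, so both probes had the same order of arrays.

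PLAUR encodes the urokinase receptor, a cell surface protein held by a glycolipid anchor. Its probe A_23_P16469 read 3777 in vehicle-treated cells, 1226 after PHA665752, 3675 after sc siRNA and 2613 after MET siRNA. The log2 ratio with the inhibitor was -1.41 (2.66-fold lower), rank 632 from the lowest of 14318 genes. With MET siRNA it was -0.54 (1.45-fold lower), rank 496 of 13644. Between the controls it was 0.21, in the opposite direction to both treatments. The siRNA value of PLAUR was larger in size than its control difference and opposite in sign. Both ratios hold the sc siRNA array, in opposite places, so a high reading there alone would give opposite signs. The scaled log2 values were 1.93 for DMSO, 2.15 for sc siRNA and 1.61 for MET siRNA.

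PLAU and PLAUR were lower in both treatment pairs, which share no array, and PLAT was the only other member below 0 in both. That makes 3 of 7 members (42.9%) below 0 in both pairs, beside 34.4% of 13437 genes with both ratios. No member was above 0 in both, beside 35.2% of all genes. No member was past 2-fold in both pairs, and 19 of the genes (0.141%) were lower by that much in both.

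**Figure D2:**
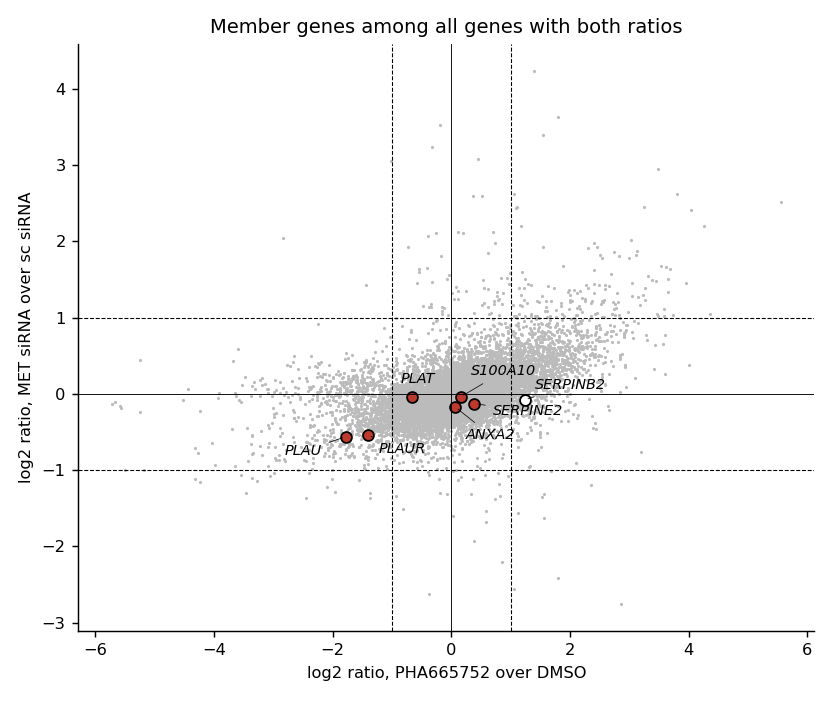
Log2 ratio of PHA665752 over DMSO (x axis) against that of MET siRNA over sc siRNA (y axis) for all genes with both ratios (grey) and the 7 members (red, or open where the siRNA value is a bound). Dashed lines mark 2-fold. PLAU and PLAUR lie left of the inhibitor threshold and below 0 on the siRNA axis, at -0.56 and -0.54.

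The promoter windows of PLAU and PLAUR are shown because these genes fell past 2-fold with the inhibitor, that of SERPINB2 because it rose past it, and that of ANXA2 as a member near 0. Each is the 250 bases before a RefSeq start on GRCh38.p14, read 5′ to 3′ on the gene's strand. Capitals mark matches to TGANTCA (the AP-1 motif), GGGCGG (a GC box) and CGGAAG (an ETS motif), each searched on both strands, and to TATAAA, searched on the gene's strand. PLAU has 2 listed starts, at windows chr10:73910360-73910609 and chr10:73910882-73911131 on the plus strand. The others are chr19:43670170-43670419 (PLAUR, minus strand), chr18:63887455-63887704 (SERPINB2, plus strand) and chr15:60397987-60398236 (ANXA2, minus strand).
PLAU, start 1: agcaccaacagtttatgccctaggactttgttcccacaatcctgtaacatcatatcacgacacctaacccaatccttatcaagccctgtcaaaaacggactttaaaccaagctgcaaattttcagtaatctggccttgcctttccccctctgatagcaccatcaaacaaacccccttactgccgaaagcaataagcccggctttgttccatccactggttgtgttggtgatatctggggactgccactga
PLAU, start 2: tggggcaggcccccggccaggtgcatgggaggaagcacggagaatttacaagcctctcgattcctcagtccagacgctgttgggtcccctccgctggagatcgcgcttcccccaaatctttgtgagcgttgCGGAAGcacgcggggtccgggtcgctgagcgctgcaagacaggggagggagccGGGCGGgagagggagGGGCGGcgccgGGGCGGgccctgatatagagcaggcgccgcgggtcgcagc
PLAUR: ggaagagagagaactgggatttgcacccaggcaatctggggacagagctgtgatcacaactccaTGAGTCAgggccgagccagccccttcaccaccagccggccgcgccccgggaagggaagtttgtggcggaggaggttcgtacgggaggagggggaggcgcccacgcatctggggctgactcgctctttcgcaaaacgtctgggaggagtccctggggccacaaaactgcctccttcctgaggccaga
SERPINB2: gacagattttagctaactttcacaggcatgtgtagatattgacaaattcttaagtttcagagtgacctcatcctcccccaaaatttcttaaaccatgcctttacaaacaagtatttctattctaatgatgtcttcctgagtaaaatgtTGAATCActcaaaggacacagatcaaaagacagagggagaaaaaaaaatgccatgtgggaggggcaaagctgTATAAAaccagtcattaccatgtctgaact
ANXA2: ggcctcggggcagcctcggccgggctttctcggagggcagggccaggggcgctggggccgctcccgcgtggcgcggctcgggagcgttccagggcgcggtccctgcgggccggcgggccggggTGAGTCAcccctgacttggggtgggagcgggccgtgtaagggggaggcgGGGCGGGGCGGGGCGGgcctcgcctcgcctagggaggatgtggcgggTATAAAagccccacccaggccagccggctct

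Windows were matched and searched for 6 of the 7 members. No window was matched to PLAT, so nothing can be said of its promoter. An AP-1 match was found in the windows of PLAUR, beginning 186 bases before the start, SERPINB2, at 102 bases, and ANXA2, at 127 bases. Of all 35116 promoter windows of this length, 6.57% held one. These 3 genes had log2 ratios of -1.41, 1.23 and 0.065 with the inhibitor, and a link between match and ratio was not tested. Neither PLAU window held one, and the second held 3 GC boxes and an ETS match 119 bases before the start. GC boxes were in 42.6% and ETS matches in 16.5% of all windows. A TATAAA match lay 30 bases before the SERPINB2 start and 31 bases before the ANXA2 start, beside 6.80% of all windows. The 3 GC boxes of ANXA2 follow each other with an overlap of 1 base. S100A10 held 1 GC box, and the windows of both SERPINE2 starts held GC boxes, with an ETS match in 1 of them. These are matches of letters only, and no binding was measured.

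PLAT encodes tissue plasminogen activator, the activator known for its affinity for fibrin. Its probe, spotted 10 times with all spots used, had a mean signal of 8490 after DMSO, 4609 after PHA665752, 3670 after sc siRNA and 3672 after MET siRNA. The DMSO array stood apart from the other arrays, its spots running from 7697 to 8809 against at most 4838 elsewhere. The log2 ratio with the inhibitor was -0.67 (spot SE 0.021). With MET siRNA it was -0.046 (spot SE 0.018), within the noise of single spots but larger than its own spot SE. The control difference was -0.96 (spot SE 0.020), the 186th lowest of 14271 genes, and it exceeded the inhibitor's value. PLAT therefore gave no value that exceeded the difference between the control arrays.

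SERPINE2 encodes protease nexin 1, a serpin that inhibits urokinase, tissue plasminogen activator and thrombin. Its probe read 1101 after DMSO, 1244 after the inhibitor, 1464 after sc siRNA and 1383 after MET siRNA. The log2 ratio was 0.39 with the inhibitor and -0.13 with MET siRNA. Here too the control difference, 0.66, was larger than either, and both arrays of siRNA-transfected cells read above the DMSO array.

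SERPINB2 encodes the second inhibitor of urokinase, a serpin that is found both inside cells and secreted. Its probe was dim on every array, with 18.8 for DMSO, 38.1 for PHA665752, 17.8 for sc siRNA and 7.27 for MET siRNA, and the last was not well above background. The lowest signal well above background was 10.8, 12.3, 10.2 and 17.4 on these arrays, so the control readings lay near the limit. With the inhibitor the log2 ratio was 1.23 (2.35-fold higher). The software's own error for these readings was 16.3% with DMSO and 12.1% with PHA665752, against 10.0% for the other member probes on those arrays. The ratio was 0.50 with normexp background correction, 0.89 with quantile normalization and 0.99 with scaling to the 50th percentile, so the rise past 2-fold depended on the processing. With MET siRNA the reading allowed only a bound, at least 1.06-fold lower, and between the controls the ratio was 0.17.

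S100A10 and annexin A2 (ANXA2) form a heterotetramer that docks plasminogen and its activators on the cell surface. S100A10 read 75543 after DMSO, 72564 after PHA665752, 66754 after sc siRNA and 67080 after MET siRNA. Its log2 ratios were 0.16, -0.040 and 0.075 for the inhibitor, siRNA and control pairs, and each changed sign under 1 of the alternatives. ANXA2 probe A_32_P148345, which stood for the gene, read 3599, 3246, 3244 and 2976, with ratios of 0.065, -0.17 and 0.10. The inhibitor value changed sign under 3 alternatives. The other ANXA2 probe, A_23_P146644, read 91875, 93761 and 80716, and its spot on the MET siRNA array was left out for a background outlier mark. Its ratios were 0.24 with the inhibitor and 0.066 between the controls. With outlier marks ignored its siRNA ratio was -0.052, within the noise of single spots. ANXA2 has near-identical processed pseudogenes, so these signals may include their transcripts.

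**Figure D3:**
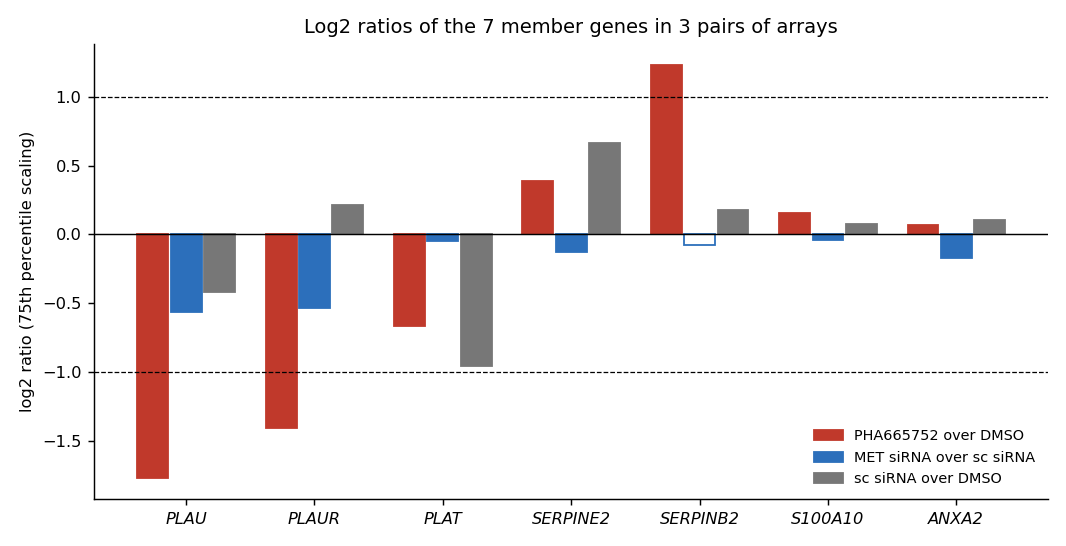
Log2 ratios of the 7 member genes (y axis, 75th percentile scaling) in the 3 pairs of arrays, with the open bar giving a bound and dashed lines at 2-fold. PLAU (-1.77) and PLAUR (-1.41) passed 2-fold downward and SERPINB2 (1.23) upward with the inhibitor. For PLAT and SERPINE2 the grey control bar is the longest.

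Small ratios moved with the processing by as much as their own size, as those of S100A10 and ANXA2 show above. Over 10 alternatives PLAU ranged from -2.02 to -1.77 with the inhibitor and from -0.86 to -0.47 with MET siRNA. PLAUR ranged from -1.66 to -1.39 and from -0.84 to -0.49. Both were past 2-fold with the inhibitor under all 10 alternatives and under none with MET siRNA. SERPINB2 ranged from 0.50 to 1.23 with the inhibitor and was past 2-fold under 7 of 10. With MET siRNA it ranged from -1.34, where no filter on dim probes was used, to -0.063. PLAT ranged from -0.91 to -0.55 with the inhibitor and from -1.06 to -0.95 between the controls.

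**Figure D4:**
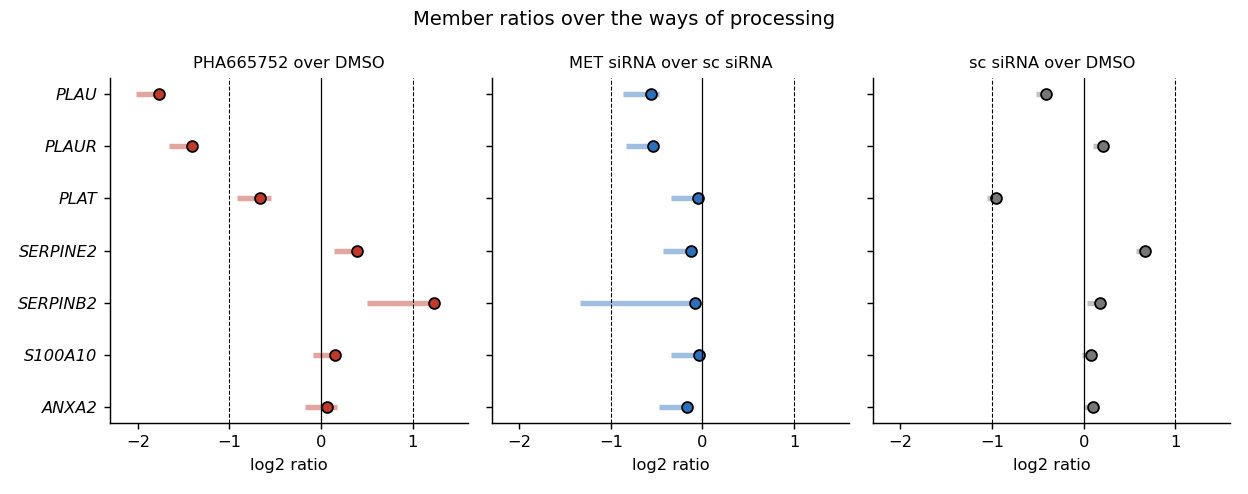
Log2 ratio of each member (point) and its range over the alternatives (bar) in the 3 pairs, with dashed lines at 2-fold. PLAU and PLAUR stay past 2-fold with the inhibitor throughout, while SERPINB2 spans 0.50 to 1.23 there and its siRNA bound stretches to -1.34 where dim probes were not filtered.

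By their ratios over the 3 pairs, the genes nearest to PLAU among 13072 well above background on all arrays were TMT1B (distance 0.060), KCTD12 (0.115) and SNRPD1 (0.117). TMT1B read -1.83 with the inhibitor, -0.55 with MET siRNA and -0.41 between the controls. The nearest to PLAUR were POGLUT2 (0.067), RRP15 (0.084) and NOP2 (0.086), and POGLUT2 read -1.42, -0.48 and 0.24. The distance is Euclidean over 3 log2 ratios, and with 4 arrays many genes lie close by this measure.

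Other genes of the system were taken from a list of 19, of which 17 had a probe measured on each array and 13 were well above background on at least 1. With PHA665752, 1 of 12 with a ratio rose past 2-fold and 1 fell, with a median of 0.021. With MET siRNA and between the controls, 0 passed 2-fold in either direction, of 12 and 13 genes with medians of -0.081 and -0.12. F12, a coagulation factor that can also activate plasminogen, was the gene that fell. It read 2621 after DMSO, 836 after PHA665752, 1905 after sc siRNA and 1665 after MET siRNA, for ratios of -1.43, -0.24 and -0.21. LRP1, an endocytic receptor that clears urokinase bound to its inhibitors, was the gene that rose, to 1.17 on the probe that stood for it. That probe read 113, 219, 68.7 and 73.7, while the other LRP1 probe had a ratio of 0.050 at 74.3 with DMSO and 66.3 with the inhibitor, so the probes disagreed.

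PLGRKT, ENO1, HMGB1, MRC2, VTN and IGF2R gave values short of 2-fold with the inhibitor. PLGRKT, a transmembrane plasminogen receptor, had ratios of -0.92, -0.17 and -0.22 for the inhibitor, siRNA and control pairs. ENO1, a glycolytic enzyme that also binds plasminogen at the cell surface, had -0.43, -0.026 and -0.096. HMGB1, a nuclear protein that binds plasminogen outside cells, had -0.86, -0.14 and -0.24. MRC2, a collagen receptor that associates with PLAUR, had 0.88, 0.26 and -0.45, and VTN, a matrix ligand of PLAUR, had 0.22, 0.17 and -0.28 at signals of 43.1 to 62.9. IGF2R, which binds PLAUR, had no value on the MET siRNA array and read 0.44 with the inhibitor on its probe.

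Among the serpins of the list, SERPINB8 had -0.80, -0.37 and 0.38, and SERPINB6 had 0.25 and 0.14 in the treatment pairs. SERPINI1, which inhibits tissue plasminogen activator, had 0.36, -0.62 and 0.67, so its siRNA and control values were close in size and opposite. SERPINF2, the main inhibitor of plasmin, was well above background on the sc siRNA array only. PLG itself, encoding plasminogen, read 15.4, 2.70, 22.0 and 16.01 and was well above background with DMSO and sc siRNA only, so both treatment values are bounds, at least 1.08-fold and 1.30-fold lower. TMPRSS6 had 0.15, 0.18 and -0.12 at signals of 18.9 to 24.6. SERPINA5, A2M, KLKB1 and HRG were not well above background on any array, and no probe was matched to CPB2.

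**Figure D5:**
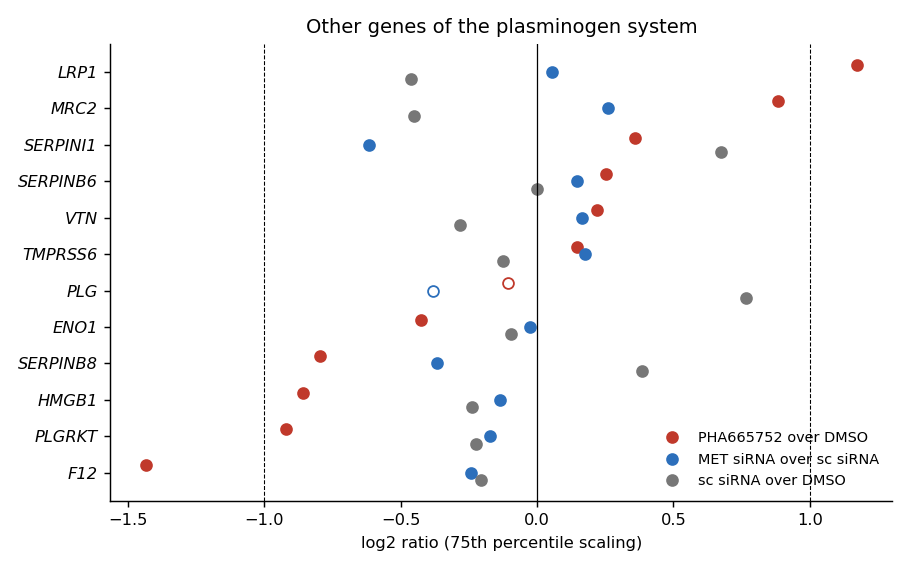
Log2 ratios (x axis, 75th percentile scaling) of the 12 other genes of the plasminogen system that had a ratio in both treatment pairs, with open points for bounds and dashed lines at 2-fold. F12 (-1.43) and LRP1 (1.17) passed 2-fold with the inhibitor, and no gene did with MET siRNA.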

How the data were processed

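Total RNA of Hs746T cells was labelled with Cy3 and hybridised to 4 single-colour arrays. The authors deposited scanner output of Feature Extraction (11.5.1.1 per the file headers), whose processed signal is a linear intensity after background subtraction, with no normalization between arrays. The series matrix of the same arrays was used only as an alternative.

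Control spots and spots with a feature or background outlier mark were dropped, the log2 values of a probe's spots were averaged, and each array's 75th percentile was subtracted. Of 108 member spots on the 4 arrays, 99 were usable. A probe was well above background if at least as many of its usable spots carried that mark as did not. With the mark on only 1 array of a pair, the ratio was a bound against the higher of the dim signal and the lowest signal well above background. With the mark on neither, there was no ratio. Of 34127 probes, 25767 were named by RefSeq accession (GRCh38.p14). The probe with the highest mean signal and a value on every array stood for its gene. Spot noise came from 755 to 782 probes per array that were spotted 10 times, had at least 5 usable spots and were well above background.

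Named genes were the members, MET, the other plasminogen system genes well above background on at least 1 array, genes past 2-fold in either treatment pair in 5 further lists (up to 4 a list) and the 3 genes nearest to each member that was past 2-fold and well above background on all arrays. PECAM1, the other marker genes and the listed genes with no signal above background were named outside that rule. The members and lists were chosen with earlier results of these data known. From the list of other plasminogen system genes and from the leukocyte markers, 1 further gene each is not reported here. They were left out after their values had been computed, and counts are over the other genes.

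Alternatives were the 50th percentile, quantile normalization, the median of probes well above background, normexp (offset 50, on the median spot signal), plain background subtraction, no filter on dim probes, probes well above background on both arrays only, outlier marks ignored, the series matrix values, the median over a gene's probes and, for counts, a 1.5-fold threshold. The rule for ratios was checked on simulated arrays. That for bounds was not, because all simulated arrays carried the same marks. Calculations used R 4.3.3 with limma 3.58.1 for normexp, and otherwise Python 3.11.15 with pandas 2.3.3 and numpy 2.4.6.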

Additional observations from a re-analysis of the deposited data

Results flagged for a closer look

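SERPINE2 was picked out because its values ran in opposite directions in the treatment pairs, 0.39 with PHA665752 and -0.13 with MET siRNA, both beyond the spot noise. Its probe was spotted once, so that noise comes from other probes. The control difference of SERPINE2, 0.66, was larger than either value, and the inhibitor value was 0.14 with the 50th percentile. The difference between the pairs was not tested.

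SERPINB2 was picked out by the same rule, at 1.23 with PHA665752 and a bound of -0.079 with MET siRNA. That bound was set by the lowest signal well above background on the MET siRNA array, 17.4, and not by the reading of 7.27. The spot noise of 0.076 is a median over repeated probes and need not hold for a single dim spot. The difference between the pairs was not tested, and the SERPINB2 probe was dim on all 4 arrays.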

How the results depend on the processing

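No paired analysis was possible because each condition had 1 array, and for the same reason no array could be left out. No member ratio past 2-fold reversed, and the number of members lower with PHA665752 was 2 under every alternative except the 1.5-fold threshold, where PLAT made it 3. The number that rose with PHA665752 was 0 in place of 1 with the 50th percentile, normexp and quantile normalization. With MET siRNA, 1 member in place of 0 was lower with no filter on dim probes. Between the controls, 1 was higher and 1 lower in place of 0 at the 1.5-fold threshold, and 1 was lower with the 50th percentile. Of the other plasminogen system genes, the number higher with PHA665752 was 2 at 1.5-fold and 0 with the 50th percentile, the median over probes, normexp and quantile normalization, in place of 1. The number lower was 4 at 1.5-fold and with the 50th percentile, and 2 with the median of probes well above background and with no filter, in place of 1. With MET siRNA, 1 was lower in place of 0 at 1.5-fold and with no filter. Between the controls, 3 were higher in place of 0 at 1.5-fold, and 1 with no filter and with plain subtraction. At 1.5-fold the shares of all genes were 24.6% higher and 17.1% lower with PHA665752, 5.38% and 2.92% with MET siRNA, and 6.94% and 4.45% between the controls. With normexp, 6.73% were higher with PHA665752, 0.448% were higher and 0.101% lower with MET siRNA, and 1.41% and 0.262% between the controls. With no filter, 3.42% were higher and 2.02% lower with MET siRNA, and 2.28% lower between the controls. With probes well above background on both arrays only, the values were 1.24% and 0.258% with MET siRNA, and 0.624% lower between the controls. The median of probes well above background gave 1.18% higher and 1.75% lower with MET siRNA, and the 50th percentile gave 12.3% lower with PHA665752. Apart from the threshold and the filters, whose construction changes the count, the cause was not tested. The 50th percentile shifted the median of all genes by -0.25 with PHA665752, and the median of probes well above background by -0.30 with MET siRNA. Signal over background limits the values of SERPINB2 and PLG.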

Other observations

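Genes related to the members were also read from lists, to be set beside the 13.1% of all genes that were higher and the 8.03% that were lower past 2-fold with PHA665752. With so few genes a list, these counts say nothing particular about a family. Of the annexin family, 2 of 8 with a ratio rose past 2-fold with PHA665752 and 0 fell: ANXA9 to 1.45 and ANXA4 to 1.10. ANXA9 was dim and read -1.06 between the controls, and ANXA4 read 0.28. Of the S100 family, 1 of 9 rose and 1 fell. S100A16 read 34460.3 after DMSO, 9016 after PHA665752, 28163 after sc siRNA and 16499 after MET siRNA, for ratios of -1.72, -0.82 and -0.038. S100P was dim, at 22.5, 105, 15.3 and 28.8, for ratios of 2.44, 0.87 and -0.30. Both genes, each on a probe spotted once, lay in the same direction in the 2 treatment pairs.

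SERPINE3 was the 1 of 4 further clade B and E serpins past 2-fold with the inhibitor, at 2.94, with 0.83 for MET siRNA and 1.06 between the controls. Its probe, spotted once, was dim, at 18.6, 123, 32.6 and 60.1. The software's error for the DMSO reading was 17.1%. Of the genes of pro-HGF activation, a list that also holds HGF, the related MST1 and inhibitors, 2 of 6 rose with the inhibitor and 0 fell. MST1, which encodes a protein related to HGF, read 1009.6, 4829.8, 829.7 and 1214, for ratios of 2.47, 0.50 and -0.030. HGF itself read 17.6 with DMSO and 43.7 with PHA665752 on a dim probe, a ratio of 1.53, and its other probe was not well above background on any array. SPINT1, an inhibitor of HGF activator, read 2.52, 8.16, 2.17 and 107 on a probe spotted once. It was well above background on the MET siRNA array only, so its bound of 3.34 rests on 1 spot. With MET siRNA it was the 1 of 5 genes of this list that rose past 2-fold, beside 2.04% of all genes. Of the S100A10 and ANXA2 partners, 1 of 8 rose with the inhibitor, ASIC1 to 1.14, with 0.12 for MET siRNA and -0.52 between the controls.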
